A study of Mus musculus with 74 samples.

Results

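Luminal hormone receptors and lineage factors are the genes by which mammary luminal cells receive hormones and keep their identity, and 9 of them were followed from primary tumors (PT) to lung metastases (Lung met) of mice. The 9 genes, Esr1, Pgr, Prlr, Foxa1, Gata3, Elf5, Stat5a, Kit and Sox10, were chosen by name among 22079 gene symbols in the 5 tables with group means. A mean was listed for 41 of the 45 pairs of gene and table, and 6 of the 9 genes were listed in every table. Pgr and Foxa1 were not listed in the Her2 table, and Stat5a was not listed in the BALB and SEAGN tables. Here and for all genes below, not listed means that no mean stood under a symbol occurring once in that table. The level of such a gene is unknown, and it cannot be called absent from the tissue.

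Tissue RNA was sequenced in bulk from females that developed mammary tumors from a transgene, which entered every cross through the father. In the FVB Her2 model the mouse mammary tumor virus (MMTV) promoter drove the neu (Her2) oncogene on the FVB/NJ background, with 6 PTs and 6 Lung mets by the labels. In the FVB C3Tag model, on the same background, the C3(1) promoter drove the SV40 T antigen, with 7 PTs and 7 Lung mets. In the PyMT-F1 models MMTV drove the polyoma middle T antigen (PyMT) in offspring of an FVB male and a BALB/cJ female (BALB), a SEA/GnJ female (SEAGN) or an AKR/J female (AKR). By the sample titles each had 6 PTs and 6 Lung mets, but the values deposited under AKR matched those of another cross, as given below. All these groups thus carried an oncogene and had tumors, and no normal mammary gland or tumor-free lung was compared. The PTs of an animal were sampled at random and combined, whereas a metastasis was used whole. In Her2 and C3Tag mice with a single lesion, the tumor was removed by surgery before or on reaching a size limit and the mice were then aged, whereas PyMT-F1 mice were aged to the humane endpoint with their tumors in place. Ages were not given per group in the sources used here. FVB Myc, also under the MMTV promoter, was not analysed here, since no mean of Myc was used.

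Each value below is the authors' mean of normalized counts over the samples of a tissue, read from the comparison of Lung met with PT in that model. These means came with no value of a single sample, so the spread between animals and the depth of each sample are unknown, no difference below could be tested, and higher or lower refers to the means alone. The difference of interest is the log2 ratio, the log2 of the Lung met mean over the PT mean. Each table was normalized on its own, so levels were not compared between tables, and models were set side by side by ratios and by the percentile of a gene within its table. The table deposited under AKR held the fold changes that a supplementary list gives for a C57BL/6 (BL6) cross. Its quotients of means equalled them within 0.5% for 272 of 275 genes, and those of any other strain for at most 8. The BALB and SEAGN tables equalled their own strain for 275 of 275 and 267 of 268 genes. That list has no AKR column, so a match to AKR could not be sought in it, and other supplementary lists of the study were not compared. Whether the deposit or the list is misnamed is not known, and the table is called the AKR-named table throughout. The sample labels did not settle this, as the genotype label named another strain than the sample title in 23 of 36 PyMT-F1 samples. For C3Tag, more PTs appear in the study's sample list than in the labels, and which entered the mean is not known.

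In the mammary gland, estrogen and progesterone act through Esr1 and Pgr, ligand-activated transcription factors found in a subset of luminal cells known as hormone-sensing cells. Their neighbours, the luminal progenitors and the alveolar cells that arise from them, largely lack both receptors and depend on Kit, Elf5 and the prolactin receptor Prlr, which signals through Jak2 and Stat5a. Foxa1 and Gata3 are transcription factors that open chromatin for Esr1 and maintain luminal identity, and Sox10 marks mammary progenitor states besides Schwann cells and melanocytes. Bulk RNA cannot tell fewer cells of a type from less RNA per cell, and this holds for every level given here.

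The lowest ratio was that of the progesterone receptor in C3Tag, and the estrogen receptor was lower in Lung met than in PT in 4 of 5 tables. Prlr, Gata3, Kit, Sox10 and, where listed, Stat5a stayed within 2-fold between tissues in every table, as did Elf5. Nearly all genes of such levels did so. The PT means of these genes were 1000 and over, apart from Stat5a in C3Tag at 965. Among all genes with PT means of 1000 and over, the share at least 2-fold apart in either direction ran from 0.621% in Her2 to 2.62% in C3Tag. The only gene at least 2-fold higher was Foxa1, in C3Tag. Counted per table, the Her2 table had 0 of 7 listed genes at least 2-fold higher and 0 at least 2-fold lower, where 2.38% and 1.43% of all 18208 genes passed. In C3Tag 1 of 9 was higher and 2 were lower, with 7.42% and 1.70% of 19320 genes passing in these directions. In BALB 0 of 8 were higher and 1 was lower, with 2.26% and 2.40% of 17270 genes. In SEAGN 0 of 8 passed in either direction, with 2.86% of 17351 genes higher and 3.22% lower. In the AKR-named table, 0 of 9 passed, with 7.31% of 17829 genes higher and 1.73% lower. These counts are small, and with 7 to 9 genes a table they say little beyond the named genes themselves.

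**Figure D1:**
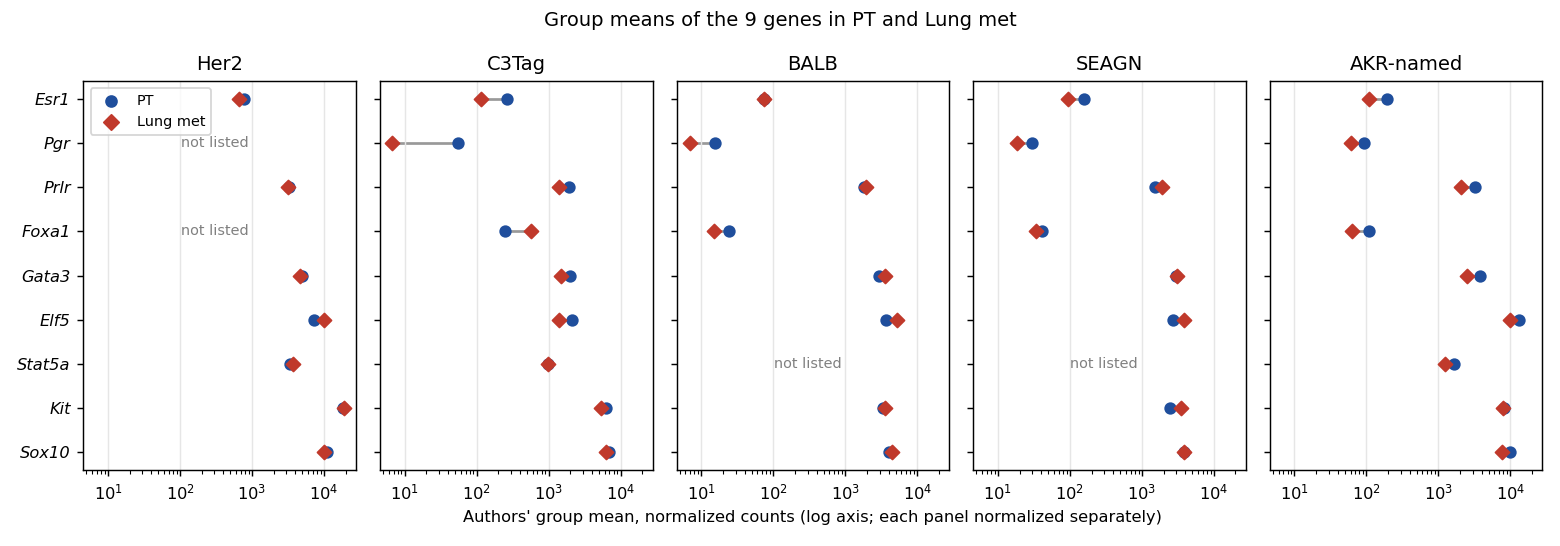
Authors' mean of normalized counts in PT (circles) and Lung met (diamonds) for the 9 genes, 1 panel per table, on a log axis; grey lines join the tissues of a gene, and no error bar can be drawn. Kit and Sox10 lie at the right of every panel with both tissues close together, whereas Pgr lies at the left, with 54.8 in PT and 6.73 in Lung met of C3Tag.

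Esr1, estrogen receptor alpha, lies on chromosome 10 (4611593 to 5005614, plus strand, GENCODE M21 on GRCm38). Its mean was 774 in PT and 661 in Lung met of Her2, a log2 ratio of -0.23. In C3Tag it was 264 in PT and 115 in Lung met, a log2 ratio of -1.20, so the PT mean was 2.30 times the Lung met mean. This was the lowest of the Esr1 ratios, and 1.20% of C3Tag genes had a lower one. In the SEAGN table Esr1 had a mean of 156 in PT and 95.0 in Lung met, a log2 ratio of -0.71. In the AKR-named table the means were 191 and 110, a log2 ratio of -0.80, below which lay 3.16% of genes. In BALB PT and Lung met did not stand apart, at 73.6 and 75.0, a log2 ratio of 0.03. Esr1 thus had a lower mean in Lung met of Her2, C3Tag and 2 of 3 PyMT-F1 tables, past 2-fold in C3Tag, and whether the tables differ from each other was not tested.

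Pgr, the progesterone receptor, is a well-known target of estrogen receptor signaling and lies on chromosome 9 (8899833 to 8968611, plus strand, GRCm38). Its mean in C3Tag was 54.8 in PT and 6.73 in Lung met, a log2 ratio of -3.03, and 0.248% of C3Tag genes had a lower ratio. In BALB it was 15.3 in PT and 6.88 in Lung met, a log2 ratio of -1.15, below which lay 1.80% of genes. The SEAGN means were 30.1 and 18.4 (log2 ratio -0.71), and in the AKR-named table they were 92.3 and 60.9 (log2 ratio -0.60). Pgr was therefore lower in Lung met in all 4 tables that listed it. All of these means are low, and low means vary more: of C3Tag genes with a PT mean under 100, 16.0% differed at least 2-fold in either direction, against 2.62% of those with 1000 and over. The corresponding shares were 7.99% and 1.64% in BALB. With 1 added to both means, the C3Tag and BALB log2 ratios of Pgr were -2.85 and -1.05.

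In SEAGN both receptors had nearly the same ratio, with PT means that were 1.64 times the Lung met mean for Esr1 and 1.63 times for Pgr. BALB showed Pgr lower with Esr1 level, so a low Pgr ratio was seen with and without a low Esr1 ratio. Among the 20 other genes listed as estrogen and progesterone signaling, the share past 2-fold differed between tables, beside the shares of all genes given above. In Her2, 1 of 13 listed genes was at least 2-fold higher and 1 lower. In C3Tag 5 of 16 were higher, where 7.42% of all genes were, and 0 lower. In BALB 1 of 14 was higher and 1 lower, in SEAGN 2 of 15 were higher and 0 lower. In the AKR-named table, 3 of 17 were higher and 1 lower. The medians of the list were 0.09, 0.37, 0.16, 0.10 and -0.25 in the same order, against medians of all genes of -0.001, 0.009, 0.030, 0.016 and 0.007. Tbx3, a transcription factor of mammary development, was at least 2-fold higher in 3 of 5 tables, with log2 ratios from 0.47 in C3Tag to 1.98 in BALB. Xbp1, a secretory-pathway regulator and estrogen target, had the highest PT percentile of the list (median 99.6 over 5 tables) and log2 ratios from -0.31 to 0.82. In C3Tag, where both receptors were lowest relative to PT, the estrogen target Greb1 had a log2 ratio of 2.19 and the paracrine mediators Areg and Tnfsf11 had 1.55 and 1.34. These 3 were picked after their values were seen, and both Greb1 and Tnfsf11 were low in PT, at percentiles 10.1 and 14.8.

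**Figure D2:**
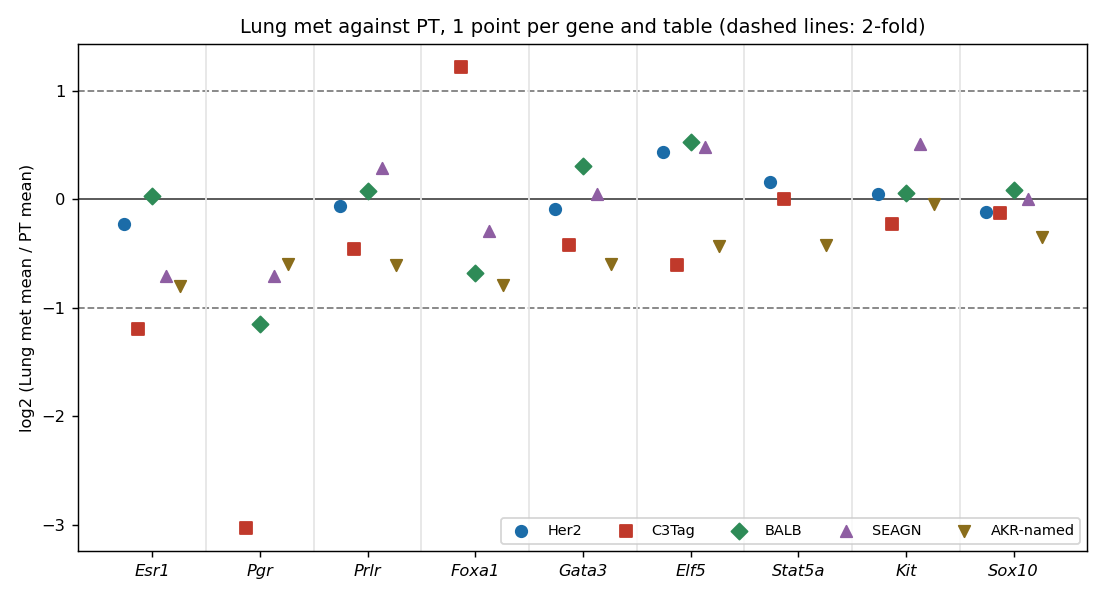
Log2 of the Lung met mean over the PT mean, 1 point per gene and table, with dashed lines at 2-fold. Pgr is below 0 in all 4 tables that list it and reaches -3.03 in C3Tag, Foxa1 is at 1.22 in C3Tag and below 0 elsewhere, and all points of Prlr, Gata3, Elf5, Stat5a, Kit and Sox10 lie between the dashed lines.

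Foxa1, the pioneer factor of the estrogen receptor, had its higher mean in Lung met in C3Tag and in PT elsewhere. It lies on chromosome 12 (57540628 to 57546916, minus strand, GRCm38). In C3Tag its mean was 248 in PT and 577 in Lung met, a log2 ratio of 1.22, and 94.4% of C3Tag genes had a lower one. In BALB the means were 24.2 and 15.1 (log2 ratio -0.68), in SEAGN 41.3 and 33.7 (log2 ratio -0.29). In the AKR-named table they were 110 and 63.6 (log2 ratio -0.79). Foxa1 was thus 2.33 times higher in Lung met of C3Tag and lower in Lung met of the 3 PyMT-F1 tables. Foxa1 is also made by lung epithelium, of whose 6 listed markers 5 were at least 2-fold higher in Lung met of the other 4 tables, Aqp5 being the exception. In C3Tag all 6 of the 6 listed lung epithelium markers, out of 11 in the list, were at least 2-fold higher, with log2 ratios from 1.69 to 7.84 and a summed mean of 2267 in PT and 20462 in Lung met. That sum, in which abundant Aqp5 counts as a marker, was 2239 and 5239 in SEAGN, 13964 and 31495 in the AKR-named table, 57829 and 56265 in Her2, and 3506 and 2888 in BALB. The part of lung tissue in the Foxa1 ratio was not tested. Of its paralogs, Foxa2 was not listed in any table, and Foxa3 had a log2 ratio of 0.65 in C3Tag, -1.60 in SEAGN and -1.27 in Her2.

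Gata3 stayed within 2-fold but had no uniform direction. Its means were 4969 in PT and 4655 in Lung met of Her2, a log2 ratio of -0.09. In C3Tag they were 1964 and 1470 (log2 ratio -0.42), in BALB 2913 and 3610 (log2 ratio 0.31) and in SEAGN 3002 and 3117 (log2 ratio 0.05). The AKR-named table gave the lowest ratio, with means of 3754 and 2473 (log2 ratio -0.60), below which lay 5.95% of genes. Gata3 thus lay within 1.52-fold in all 5 tables, at both sides of 0. Its relatives Gata6 and Gata2, which serve lung, vascular and blood lineages, differed more, with log2 ratios of 2.22 to 3.14 and of 1.31 to 3.06, at least 2-fold higher in Lung met in 5 of 5 tables. Their PT percentiles were low, with medians of 6.55 for Gata6 and 31.2 for Gata2. Over all 25 paralogs of the 9 genes, 18 or 19 were listed per table, 2 or 3 of them were at least 2-fold higher and 0 or 1 lower, and the medians lay between -0.02 and 0.22. Stat3 had the highest PT percentile of the paralogs (median 98.1), with log2 ratios from -0.17 to 0.24.

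Prlr, the receptor for prolactin, had no uniform direction. Its PT percentile was 84.7 or more in every table, although in C3Tag it was 49.1 among genes of similar length. Its means in Her2 were 3255 in PT and 3133 in Lung met, a log2 ratio of -0.06. In C3Tag they were 1932 and 1405, a log2 ratio of -0.46, below which lay 8.74% of genes. In the AKR-named table they were 3195 and 2090, a log2 ratio of -0.61, below which lay 5.73% of genes. In BALB they were 1813 and 1918 (log2 ratio 0.08) and in SEAGN 1533 and 1877 (log2 ratio 0.29). Lung met was thus lower in 3 tables and higher in 2, within 1.53-fold throughout. Stat5a, the transcription factor that carries the prolactin signal to milk protein genes, had means of 3354 and 3751 in Her2 (log2 ratio 0.16), 965 and 966 in C3Tag (log2 ratio 0.00) and 1660 and 1241 in the AKR-named table (log2 ratio -0.42). Its close paralog Stat5b, with which reads may be shared, had log2 ratios between -0.46 and 0.35 over the 5 tables.

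Elf5, the ETS factor that directs alveolar differentiation downstream of prolactin, separated the tables by direction. Its means were 7275 in PT and 9843 in Lung met of Her2, a log2 ratio of 0.44. In BALB they were 3669 and 5303 (log2 ratio 0.53) and in SEAGN 2747 and 3835 (log2 ratio 0.48), so that Lung met was 1.35, 1.45 and 1.40 times PT in these 3 tables. In C3Tag the means were 2105 and 1382 (log2 ratio -0.61), and in the AKR-named table they were 13344 and 9905 (log2 ratio -0.43). None of these passed 2-fold, and 92.1%, 92.8% and 90.6% of the genes of Her2, BALB and SEAGN had a lower ratio than Elf5.

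Of the 15 other genes of the prolactin, Jak2 and Stat5 axis, 2 of 15 listed were at least 2-fold higher and 0 lower in Her2. In C3Tag 2 of 12 were higher and 0 lower, in BALB 2 of 13 and 0, and in SEAGN 2 of 14 and 1. In the AKR-named table, 0 of 15 were higher and 1 lower. The medians were 0.11, 0.57, 0.35, 0.22 and 0.10. Csn3, which encodes kappa casein, had the highest PT percentile of this list, with a lowest value of 99.1 and log2 ratios from -0.29 to 0.62. The feedback inhibitor Cish had log2 ratios between 0.11 and 0.92, and Socs3 between 0.30 and 0.99, above 0 in all 5 tables but never past 2-fold. Other feedback inhibitors did not share this, with Socs1 at -0.32 in Her2, -0.31 in BALB and -0.34 in SEAGN but 0.67 in C3Tag and 0.99 in the AKR-named table, and Socs2 at -0.12 in Her2, 2.14 in C3Tag and 0.84 in the AKR-named table. Milk protein genes made up the genes past 2-fold outside C3Tag. Wap was at 2.68 in Her2, 2.82 in BALB, -1.61 in SEAGN and -1.39 in the AKR-named table. Lalba was at 1.17 in BALB and 2.10 in SEAGN, and Csn2 at 1.47 in Her2 and 2.45 in SEAGN. In C3Tag the genes past 2-fold were Socs2 and Ccnd1 (1.78). All of these but Csn3 were picked after their values were seen.

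Kit and Sox10 were abundant in every PT group and stayed within 2-fold between tissues. Kit, the receptor of stem cell factor and a marker of luminal progenitors (chromosome 5, 75574916 to 75656722, plus strand, GRCm38), had means of 18100 and 18743 in PT and Lung met of Her2 (log2 ratio 0.05). In C3Tag they were 6169 and 5270 (log2 ratio -0.23), in BALB 3398 and 3545 (log2 ratio 0.06) and in the AKR-named table they were 8103 and 7872 (log2 ratio -0.04). SEAGN stood apart with means of 2496 and 3555, a log2 ratio of 0.51. Sox10 (chromosome 15, 79154908 to 79165240, minus strand, GRCm38) had means of 11039 and 10152 in Her2 (log2 ratio -0.12), 6816 and 6220 in C3Tag (log2 ratio -0.13) and 4119 and 4399 in BALB (log2 ratio 0.09). In SEAGN they were 3868 and 3878 (log2 ratio 0.00), and in the AKR-named table they were 9828 and 7736 (log2 ratio -0.35). Sox10 thus had the narrowest range of ratios of the 6 genes listed in every table, although Kit was more nearly level in Her2, BALB and the AKR-named table. Kit is also a mast cell gene and Sox10 a Schwann cell gene, and markers of both were looked at. Of 8 mast cell markers only Hdc was listed, in every table, with log2 ratios of 1.40 to 4.85. Cpa3, Mcpt4, Tpsb2 and the other defining genes were not listed, so their levels are unknown. Of 8 Schwann cell and neural crest markers 5 to 7 were listed. Their summed PT mean was 6227 in Her2, 2390 in C3Tag, 737 in BALB, 668 in SEAGN and 2610 in the AKR-named table. The tables were normalized separately and did not all list the same markers, so these sums cannot be compared between tables. Of the markers, Mbp had the highest median PT percentile (76.6), and Foxd3 was not listed. Cdh19 reached 92.9 in Her2 and lay between 46.3 and 65.5 in the other 3 tables that listed it. Cdh19 was picked after its values were seen. Means of different genes do not give shares of cells, and the part of mast cells in Kit and of Schwann cells in Sox10 was not tested.

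Genes that accompany Kit and Elf5 in luminal progenitors were mostly level too. Of 14 in the list, 12 to 14 were listed per table, 1 to 3 were at least 2-fold higher and 0 or 1 lower, with medians of 0.20 in Her2, 0.03 in C3Tag, 0.11 in BALB, 0.10 in SEAGN and 0.06 in the AKR-named table. Ehf, an ETS factor of glandular epithelium, had the highest PT percentile of the list (median 99.6) and log2 ratios from -0.33 to 0.20. Kitl, the ligand of Kit, had log2 ratios from -0.30 in C3Tag to 0.54 in SEAGN, the tables in which Kit itself had its lowest and highest ratio. Kitl was picked after its values were seen. Slc34a2, a phosphate transporter of alveolar luminal cells and also of alveolar type 2 cells of the lung, passed 2-fold in all 5 tables, with log2 ratios from 1.26 in Her2 to 7.96 in C3Tag. The other genes of the list past 2-fold were Tspan8 (4.84 in C3Tag and -1.52 in BALB), Rspo1 (1.73 in C3Tag), Aldh1a3 (1.33 in BALB and 1.14 in the AKR-named table) and Cyp24a1 (-1.87 in the AKR-named table).

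Within a PT, the listed genes lay between percentiles 16.2 and 99.2 in BALB, but between 61.2 and 99.1 in Her2, where Pgr and Foxa1 were not listed. The percentile is the share of genes in the table with a lower PT mean, and its span over the tables was 24.4 points for Esr1, 1.71 for Kit and 1.40 for Sox10. Sox10 lay between 97.8 and 99.2 and Kit between 97.4 and 99.1. Gata3 lay between 85.0 in C3Tag and 98.8 in SEAGN, Elf5 between 86.2 in C3Tag and 99.0 in BALB, and Prlr between 84.7 in C3Tag and 96.5 in BALB. C3Tag was thus lowest in PT for Prlr, Gata3, Elf5, Stat5a, Kit and Sox10. Stat5a lay at 90.9 in Her2, 78.2 in the AKR-named table and 70.4 in C3Tag. Esr1 lay at 61.2 in Her2, 55.1 in SEAGN, 45.2 in C3Tag, 39.1 in BALB and 36.8 in the AKR-named table. Foxa1 lay at 44.2 in C3Tag, 31.0 in the AKR-named table, 30.7 in SEAGN and 22.4 in BALB, and Pgr between 16.2 in BALB and 29.1 in the AKR-named table. Which neighbours in these orders differ beyond the spread between animals cannot be said from group means. The tables also differed in the RNAs they held. The gene with the highest PT mean was Trf in Her2, mt-Co1 in the AKR-named table and Rn7s1 in BALB and SEAGN. In C3Tag it was Gm22614, with 38.3% of the summed PT means. Histone genes of the H2A, H2B, H3 and H4 clusters numbered 24 in Her2 and the AKR-named table, 49 in C3Tag and 52 in BALB and SEAGN. The part of this in the orders of percentiles was not tested.

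Longer genes collect more reads, and the tables differed in this respect. Across genes with a PT mean of at least 10, Spearman's rho of PT mean with exonic length was 0.474 in C3Tag, 0.399 in SEAGN, 0.384 in BALB, 0.359 in Her2 and 0.309 in the AKR-named table. Percentiles were therefore also taken among genes whose exonic length was within 1.3-fold of that of the gene. Esr1, with 13661 exonic bases, then lay at 33.4 in Her2, 20.6 in SEAGN, 16.7 in the AKR-named table, 15.2 in C3Tag and 12.8 in BALB, so that Her2 had the highest percentile of Esr1 by both measures. The order of the spans changed, with 38.8 points for Prlr, 37.9 for Stat5a over 3 tables, 25.8 for Foxa1 and 20.6 for Esr1, against 3.70 for Kit and 1.40 for Sox10. Prlr, with 15339 bases, lay at 49.1 in C3Tag and between 83.0 and 87.9 in the other 4 tables. Stat5a lay at 50.8 in C3Tag, 71.2 in the AKR-named table and 88.7 in Her2. Gata3, at 87.8, Elf5, at 82.2, and Kit, at 95.6, also kept their lowest percentile in C3Tag. Kit reached 99.3 in Her2. Sox10 alone among the genes lowest in C3Tag before had its lowest percentile elsewhere, from 98.0 in the AKR-named table to 99.4 in SEAGN.

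**Figure D3:**
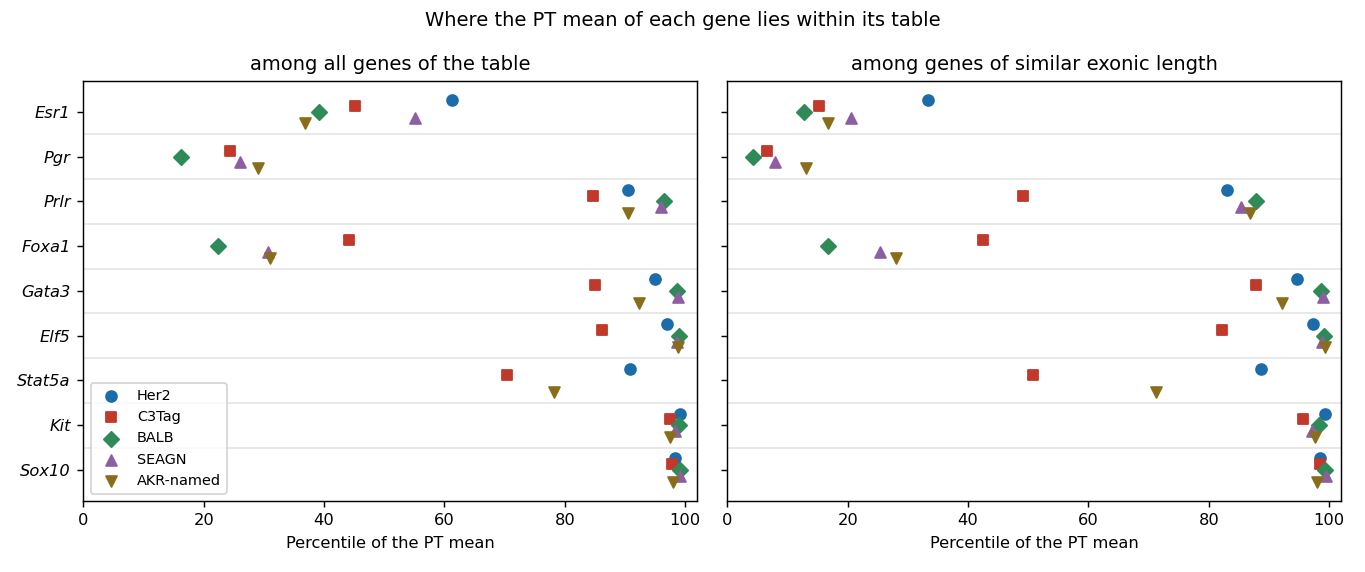
Percentile of the PT mean of each gene in each table, among all genes (left) and among genes within 1.3-fold of its exonic length (right). Kit and Sox10 sit at the right edge in both panels, Pgr at the left, and the C3Tag squares of Prlr and Stat5a lie at 49.1 and 50.8 on the right.

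Set on a scale per length, as mean per 1000 exonic bases, Sox10 had the highest PT level of the listed genes in each of the 5 tables, and only the order within a table can be read from these values. In Her2 it was at 3618, ahead of Kit at 2031, and Esr1 was lowest at 56.7. In C3Tag Sox10 was at 2234 and Kit at 692, with Esr1 at 19.3 and Pgr at 6.41. In BALB Sox10 was at 1350 and Gata3 at 732, with Esr1 at 5.38 and Pgr at 1.79. The order at both ends was the same in SEAGN, with Sox10 at 1268, Gata3 at 755, Esr1 at 11.4 and Pgr at 3.53. Sox10 was at 3221 and Elf5 at 2271 in the AKR-named table, with Esr1 at 14.0 and Pgr at 10.8. Pgr was thus lowest in each of the 4 tables that listed it, followed by Esr1. The highest PT level per length was 63.8 times the lowest in Her2, 298 times in the AKR-named table, 349 times in C3Tag, 360 times in SEAGN and 753 times in BALB. The lowest gene was Esr1 in Her2, where Pgr was not listed, and Pgr in the others, so the Her2 quotient is of another pair of genes.

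The labelled tissues were set against markers. Luminal epithelial markers were abundant in PT, with Epcam at percentiles of 99.2 to 99.8, and 9 or 10 of 10 were listed per table. In Lung met 2 were at least 2-fold higher in Her2 (Krt19 at 3.81 and Muc1 at 1.32), 2 in C3Tag (Muc1 at 2.87 and Krt7 at 1.39), 1 in BALB (Krt19 at 1.23) and 0 in SEAGN and the AKR-named table, and 0 were at least 2-fold lower. The medians of the list were -0.03 in Her2, 0.18 in C3Tag, 0.00 in BALB, 0.08 in SEAGN and 0.13 in the AKR-named table. Against these, the medians of the 9 genes (those listed) were -0.06, -0.42, 0.07, 0.03 and -0.60. In the AKR-named table, where 50.8% of all genes had a log2 ratio above 0, all 9 genes had a lower mean in Lung met, from -0.80 for Esr1 to -0.04 for Kit, while Krt8, Krt18 and Epcam had log2 ratios of 0.13, 0.07 and 0.05. In C3Tag, with 51.2% of all genes above 0, 7 of 9 were lower, and Krt8, Krt18 and Epcam had 0.64, 0.23 and -0.68. Krt8, Krt18, Krt19, Krt7 and Muc1, like Foxa3, Stat5b and the named progenitor genes other than Ehf and Slc34a2 above, were picked after their values were seen. In BALB 6 of 8 and in SEAGN 5 of 8 listed genes had a higher mean in Lung met, and in Her2 3 of 7, where 55.3%, 52.6% and 49.7% of all genes did.

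Other cell types differed between the same tissues. Lung epithelium markers were at least 2-fold higher in Lung met for 5 or 6 of 6 listed in each table, led by Lamp3 (4.62 to 7.84), Ager (4.04 to 5.48), Napsa (3.54 to 6.01) and Hopx (2.06 to 4.07), whereas Aqp5, at a median PT percentile of 98.8, had log2 ratios from -0.66 to 1.69. The defining markers Sftpc, Sftpb, Scgb1a1 and Nkx2-1 were not listed in any table. Endothelial markers were at least 2-fold higher for 8 of 9 listed in the AKR-named table and 6 of 9 in C3Tag, the tables with the lowest medians of the 9 genes, against 3 in Her2 and 2 each in BALB and SEAGN. These 2 tables also had the larger shares of all genes at least 2-fold higher, 7.31% and 7.42%, against 2.26% to 2.86% in the other 3. The endothelial sum was 2867 in PT and 10924 in Lung met of the AKR-named table, and 3744 and 10124 in C3Tag, with Vwf at log2 ratios of 1.62 to 3.23 and Cldn5 at 1.21 to 4.49 over the tables. Tek was at least 2-fold higher in 3 of 5 tables. Most fibroblast markers were lower, at least 2-fold for 7 of 8 in Her2, SEAGN and the AKR-named table, 6 in BALB and 2 in C3Tag, with Lum at -5.39 to -1.63, Thy1 at -2.68 to -1.40, Col1a2 at -2.32 to -0.06, Col1a1 at -2.81 to -0.62 and Dcn at -2.42 to 0.75. Pdgfra, of the same list, had a higher mean in Lung met of all 5 tables, at 0.44 to 0.94, and was picked after its values were seen. The part of these cell types in the ratios of the 9 genes was not tested.

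**Figure D4:**
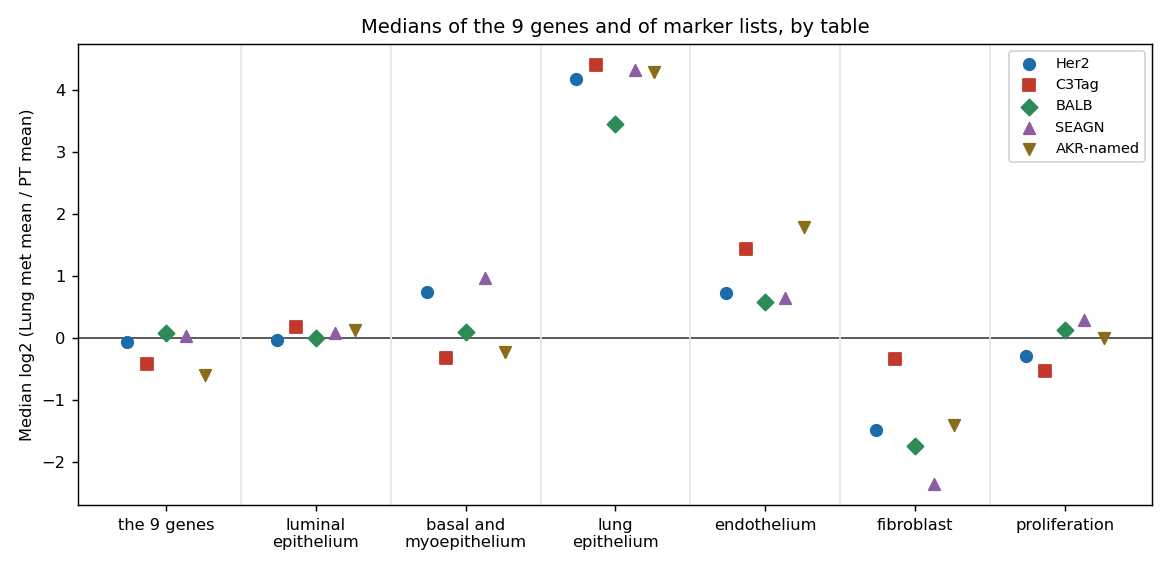
Median log2 ratio of the listed genes among the 9 and among marker lists, 1 point per table. The medians of the 9 genes lie between -0.60 and 0.07 and those of luminal epithelium between -0.03 and 0.18, while lung epithelium lies between 3.45 and 4.41 and fibroblast between -2.37 and -0.34.

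The remaining lists were smaller or mixed. Basal markers had medians of 0.74 in Her2, -0.32 in C3Tag, 0.09 in BALB, 0.96 in SEAGN and -0.23 in the AKR-named table, and Krt14 had log2 ratios from -1.51 in C3Tag to 1.12 in BALB. Proliferation genes had medians of -0.30, -0.54, 0.12, 0.28 and -0.01 in the same order, with none of 8 past 2-fold, and Mki67 had log2 ratios from -0.74 to 0.40. T cell markers were at least 2-fold higher for 6 of 8 listed in the AKR-named table and for 0 to 2 in the others, with Il7r at 0.95 to 1.87 and Lck at -0.71 to 1.11. Of the adipocyte markers Fabp4 alone was listed, in 4 tables, with log2 ratios from -2.73 to -0.38.

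The C3Tag table, which holds 3 of the 4 cases past 2-fold, stood apart in another respect. In it 1 small gene model, Gm22614, held 38.3% of the summed PT means and 0.000194% of the summed Lung met means. Histone genes of the H2A, H2B, H3 and H4 clusters, whose transcripts mostly lack a poly(A) tail, had a median log2 ratio of -0.58 over 49 genes, with 10 at least 2-fold lower, the lowest at -10.40, and a summed mean of 649036 in PT and 47374 in Lung met. In the other 4 tables the medians of these genes were between -0.05 and 0.53, with 0 or 1 at least 2-fold lower, the lowest at -3.86 in Her2. At least 2-fold higher were 5 of 24 in the AKR-named table, up to 3.95, 1 of 52 in BALB and 0 in Her2, SEAGN and C3Tag. Gm22614 and the histones were chosen after their values were seen. Whether the C3Tag tissues differed in how the libraries were made or in RNA quality, and what part this has in the ratios of Pgr, Esr1 and Foxa1, was not tested.

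Over the 10 group means of the 5 tables (log2 of mean plus 1, less the median of the genes in that group), the pattern of each gene was set against 11558 other genes with a mean of at least 10 in every group. This sets groups of separately normalized tables side by side, and the points share tables, so Pearson's r here is a description and carries no p. The pattern most like that of Prlr was that of Gata3, with r = 0.981, and the reverse held. Next for Prlr came Fam83b (0.974) and Naaladl2 (0.972), and for Gata3 Gpld1 (0.976) and Fam83b (0.966). Esr1 was most like Osbp2 (0.944), A330035P11Rik (0.938) and 4933431E20Rik (0.932). Elf5 was most like Thrsp (0.972), Rpl27a (0.958) and Cited2 (0.955), Kit like Inpp5k (0.968), Trabd2b (0.968) and Pdzrn3 (0.965), and Sox10 like Wnk2 (0.967), Apol6 (0.957) and Rbbp8nl (0.953). Among the 6 genes themselves, Sox10 had an r of 0.92 with Prlr and 0.91 with Gata3, Esr1 had 0.78 with Kit and 0.11 with Elf5. Pgr, Foxa1 and Stat5a were not listed in every table and entered no such value.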

How the data were processed

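RNA was sequenced from 74 samples, and 6 tables, 1 per model, compare Lung met with PT. Per the labels, reads were aligned with STAR 2.7.8a to mm39 and compared with DESeq2, and libraries were stranded total RNA depleted of ribosomal RNA. The methods of the study name Partek Flow, mRNA libraries, mm9 and mm10, Gene Specific Analysis for the drivers and DESeq2 for PyMT-F1, and these accounts were not reconciled. For BALB and SEAGN the gene identifiers are those of a BALB/cJ assembly. The values used are a signal: the authors' least-squares mean of normalized counts per tissue, deposited with no value per sample, SD or n. The authors' p-values, FDR and ratios were not used, and their fold changes served only to check which strain a PyMT-F1 table held. The Myc table holds only p-values and FDR, so Myc was not analysed. No test was possible.

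From the means, log2 ratios, percentiles and counts at a 2-fold threshold were computed (Python 3.11.15, numpy 2.4.6, pandas 2.3.3, matplotlib 3.10.9), after the computations were tested on simulated data. Genes were matched by symbol, and symbols occurring more than once were left out of lists. Exonic lengths (union of exons) are from GENCODE M21 on GRCm38, by identifier or symbol, for at least 82.5% of genes per table. Named list genes are those at least 2-fold in 1 direction in 3 or more tables, up to 4 per list, and the one with the highest PT percentile; for each of the 9 genes, the 3 most alike are named. The 9 genes and the lists were chosen with earlier results of these data known. Groups follow the sample titles. Alternatives were a fold of 1.5 or 3, a mean of at least 10 in either tissue, subtraction of the median, 1 added to both means, and other sets of genes for percentiles.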

Additional observations from a re-analysis of the deposited data

How the results depend on the processing

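No paired analysis was possible because the tables hold no value of a single sample, although titles name the animal of each PT and Lung met; for the same reason no replicate could be left out. Subtracting the median of all genes, adding 1 to both means or requiring a mean of at least 10 left the counts of the 9 genes past 2-fold and their medians in place in all 5 tables (medians moved by under 0.1). With a fold of 1.5 the count went from 1 to 2 of 8 in BALB, from 0 to 2 of 8 in SEAGN and from 0 to 5 of 9 in the AKR-named table, all lower in Lung met, where 6.76%, 8.32% and 6.32% of all genes were. It went from 3 to 4 of 9 in C3Tag (1 higher and 3 lower, against 14.0% and 5.61% of all genes) and stayed at 0 in Her2. With a fold of 3 it went from 3 to 1 in C3Tag, which was Pgr, and from 1 to 0 in BALB. Genes of all fixed lists past the threshold went from 32 to 61 in C3Tag, from 27 to 45 in BALB and from 32 to 50 in SEAGN with a fold of 1.5. Ranking by mean per exonic length moved the median PT percentile of the 9 genes from 84.7 to 56.8 in C3Tag, from 97.1 to 86.0 in SEAGN and from 90.5 to 66.1 in the AKR-named table. Ranking among genes of similar length, chosen after seeing the data, moved it from 84.7 to 50.8 in C3Tag, and by under 10 points in the other 4 tables. Of 41 single percentiles, 16 moved by 10 points or more per length, 12 among genes of similar length, and 5 of 30 among symbols shared by all tables. Precision is unknown, as group means came without a spread.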
